A study of Mus musculus with 16 samples.

Results

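The comparison described here set organ of Corti cultures of mice heterozygous for a Rest allele without exon 4 against wild-type cultures, both kept in solvent and without drug. It compared 8 of the 16 libraries of the series, all 4 of each group, over 17125 genes with enough reads to be tested. The organ of Corti is the sensory epithelium of the cochlea, with hair cells, supporting cells and the endings of spiral ganglion neurons. Both groups were cultures from mice labelled C57BL/6 and taken at postnatal day 0, grown for 3.5 days on Matrigel-coated inserts and given 0.1% DMSO between days 1 and 1.5 and again between days 3 and 3.5. The genotypes were wild type and Rest(+/deltaExon4), and each library held RNA pooled from 6 to 8 cultures. Whether pools came from different litters, or whether both genotypes came from the same litters, is not in the labels, and whether the genotypes also differed at loci other than Rest was not tested. A p-value here therefore reflects only how much the pools varied, and in RNA from a whole organ fewer cells of a type and less RNA per cell cannot be told apart. The remaining 8 libraries were 4 of each genotype exposed to 2 nM FK228 (romidepsin, an inhibitor of histone deacetylases) at the same times. They entered the fit of all 16 libraries, which set the filter and the estimate of each gene's spread behind every p-value. Their levels are used only where the genotypes are compared again.

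REST is a zinc finger protein that binds a DNA element called RE1 near many neuronal genes and represses them. It does so by recruiting corepressors such as SIN3A and the CoREST complex, which carry histone deacetylases. In hair cells the splicing factor SRRM4 promotes inclusion of exon 4, an alternative exon of Rest, which yields a truncated protein with little repressor activity. Genes held down by REST in other cells include many parts of the machinery for regulated secretion, such as SNARE proteins, complexins and granins, along with neurofilaments and ion channels.

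Levels are given in CPM, a library's counts for a gene scaled to a common total, in the order wild-type libraries 1, 2, 3 and 4, then heterozygous libraries 1, 2, 4 and 5. Log2 fold changes are heterozygous minus wild type with their standard error (SE), and a gene is said to have risen or fallen, or to be called, where its p adjusted over all 17125 genes was under 0.05.

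Gene counts ran from 17462876 to 23611571 in the wild-type libraries and from 14627922 to 15674930 in the heterozygous ones, and unmapped reads from 0.760% to 0.787% and from 0.868% to 0.892%. Neither measure overlapped between the groups (exact two-sided permutation p = 0.0286 each, adjusted p = 0.162 over 34 library measures), and their part in the results was not tested. Reads on transgene and synthetic spike-in rows were 0% to 8.47e-06% of gene counts in wild type and 3.42e-05% to 0.000106% in heterozygous libraries. The summed level of neuronal RNA-binding and splicing genes was 166 to 184 CPM and 154 to 164 CPM. These measures did not overlap either, with the same p-values by that test, and their part was not tested. Some libraries stood apart from others of their own group. Heterozygous libraries 1 and 2 scored 44.0 and 43.2 on the first principal component of log CPM (28.5% of the variance), whereas libraries 4 and 5 scored -7.0 and 3.80. The share of reads outside genes was 10.8% in wild-type library 1, 10.4% in heterozygous library 4 and 12.9% in heterozygous library 5, against 16.2% to 19.7% in the other 5. Defining markers of hair cells (Myo7a, Pou4f3, Otof), supporting cells (Sox2, Gjb2, Tecta) and neurons (Tubb3, Nefl, Rbfox3) were present in all 8 libraries. The summed level of Y-linked genes was 90.2, 152, 120 and 0 CPM in wild type and 193, 257, 102 and 222 CPM in heterozygous libraries (p = 0.0857 by the same exact permutation test, adjusted p = 0.324), so the mix of sexes differed between pools. With this level as a covariate there were 144 genes higher, 100 genes lower and 16 REST targets lower, and of the genes named below Scn3b, Scn2b, Disp2, Lhfpl5, H2-D1, Sycp1 and Gm42486 were not called (adjusted p = 0.0505 to 0.199). Its part in the results was not tested beyond that fit.

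Rest itself (ENSMUSG00000029249, chr5:77265491-77286432 on GRCm38) was measured at 85.5, 78.6, 75.2 and 86.4 CPM in wild type and at 78.1, 86.9, 94.8 and 93.4 CPM in heterozygous cultures. The groups overlapped, with 3 heterozygous libraries above every wild-type one and 1 within their range, and the log2 fold change was 0.12 ± 0.08 (adjusted p = 0.654). With scaling to the spike-in RNA it was -0.06 (adjusted p = 0.844). Reads were summed over the gene as a whole, so the share of transcripts carrying exon 4 was not measured. Of the 25 genes listed as REST, its corepressors and the splicing factors of its neural exon, none was called by edgeR or limma voom and 1 by DESeq2, 6 had an unadjusted p under 0.05, 15 lay below 0 and the median log2 fold change was -0.04. Sin3a, the scaffold of one corepressor complex, had the smallest p of that list, with 40.8, 46.0, 43.0 and 50.1 CPM in wild type and 37.7, 27.5, 32.9 and 36.7 CPM in heterozygous cultures. All 4 heterozygous libraries lay below the wild-type range, but the log2 fold change of -0.41 ± 0.11 did not pass the test (adjusted p = 0.0703, with 0.0292 as its lowest value over the alternatives). Srrm4 had 3.30, 2.15, 3.20 and 3.68 CPM in wild type and 5.94, 5.96, 2.22 and 3.56 CPM in heterozygous cultures. Heterozygous libraries 1 and 2 were the highest of the 8 and library 4 was near the lowest, so the groups overlapped (log2 fold change 0.52 ± 0.31, adjusted p = 0.602).

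Across all genes, 206 were higher and 141 lower in heterozygous cultures, which is 2.03% of the 17125 tested (1.20% higher and 0.823% lower). The median over all genes was -0.01 and 52.4% of them lay below 0. Called genes that rose were changed 2.29-fold at the median and those that fell 2.04-fold. At least 4-fold changes were found for 68 of the higher and 29 of the lower genes, and at least 8-fold changes for 41 and 16. In 179 of the 206 higher genes every heterozygous library lay above every wild-type one, and in 135 of the 141 lower genes every one lay below. Over all genes tested, 3.10% had ranges apart upward and 3.13% downward. Lower genes were almost all protein-coding (131 of 141, or 92.9%, against 84.6% of genes tested), while 143 of the higher genes (69.4%) were. Scaling to the spike-in RNA moved the median of all genes to -0.18 and the share of calls that were higher from 59.4% to 35.1%, so each change is stated against the other transcripts of its library.

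**Figure D1:**
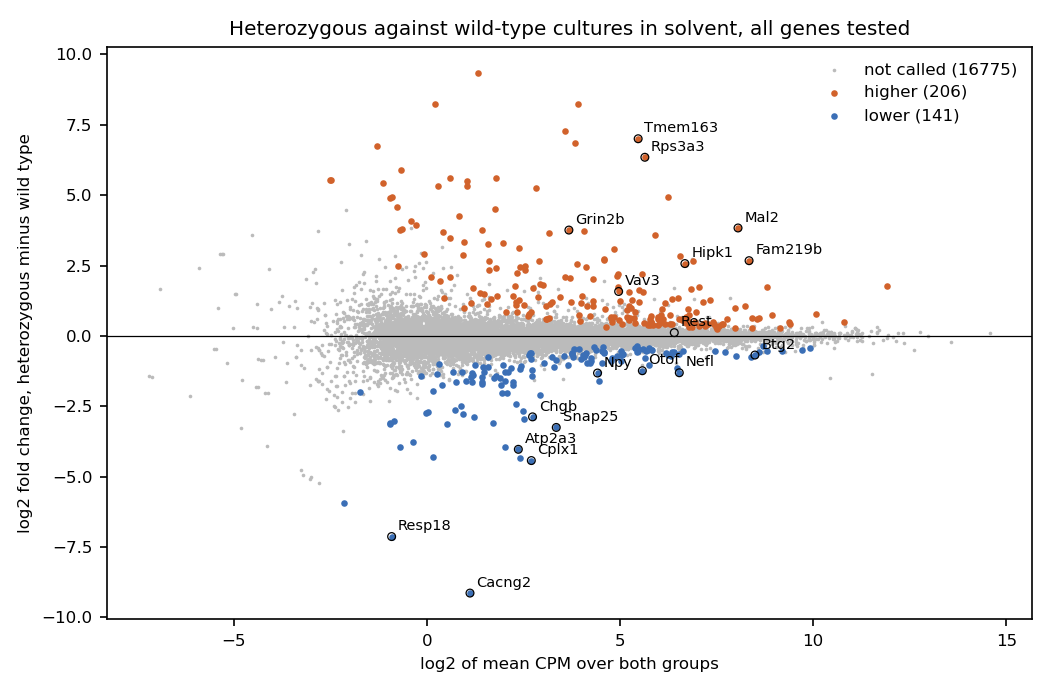
Log2 fold change (heterozygous minus wild type, solvent; vertical axis) against the log2 of the mean CPM over both groups (horizontal axis), 1 point per gene, with 206 higher genes in orange, 141 lower genes in blue, genes not called in grey, and 3 genes at 0 CPM in all 8 libraries not drawn. Tmem163 and Rps3a3 stand highest among the labelled genes and Cacng2 and Resp18 lowest, where a group at 0 makes the fitted value depend on the model and no bound.

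In 8 of the called genes a whole group had no count, and their fold changes are given only as lower bounds against 3 counts over the group. Cacng2, Resp18 and Tmem145 had no count in any heterozygous library. Cacng2 was at least 86.3-fold lower, Resp18 at least 21.8-fold and Tmem145 at least 9.44-fold. Those with no count in any wild-type library were Gm42486, Gm42743, Gm6594, Gm8909 and Sycp1, at least 126-fold, 8.90-fold, 58.5-fold, 8.90-fold and 20.3-fold higher. Not all of these calls were stable: Sycp1 was not called without heterozygous library 1 or 4 or without any 1 wild-type library (adjusted p up to 0.101), and Gm42486 was not called without heterozygous library 2 or any 1 wild-type library (up to 0.0581). Gm42486 also had 0 CPM in heterozygous library 4, so its groups overlapped.

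Of the REST targets on the list used here, those that were called were all lower. The list of 50 such genes was written from general knowledge with earlier results of these data known, so its counts are no independent evidence of a direction. It had 45 members tested, of which 18 fell and none rose by edgeR (none at an unadjusted p under 0.05, by DESeq2 or by limma voom), against 0.823% of all genes called lower. Its median log2 fold change was -0.84, 36 of the 45 lay below 0, and in 17 all 4 heterozygous libraries lay below the wild-type range. Of the 5 members not tested, Glra3 had no count in any library. The 18 genes that fell were Snap25, Cplx1, Syp, Rab3c, Chga, Chgb, Scg3, Nefm, Nefh, Ina, Tubb3, Stmn3, Gdap1, Mapk8ip2, Rundc3a, Disp2, Chrnb2 and Scn3b. Among the 27 that did not pass the test were Vgf (-1.63), Celsr3 (-1.57), Syn1 (-0.68), Stmn2 (-0.19) and Bdnf (-0.47). Tubb3, Disp2, Scn3b and Nefm lost the call without 1 or another library, as given for each below. Leaving out both wild-type library 1 and heterozygous library 4, those with the smallest share of reads outside genes, left 13 of the list called.

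**Figure D2:**
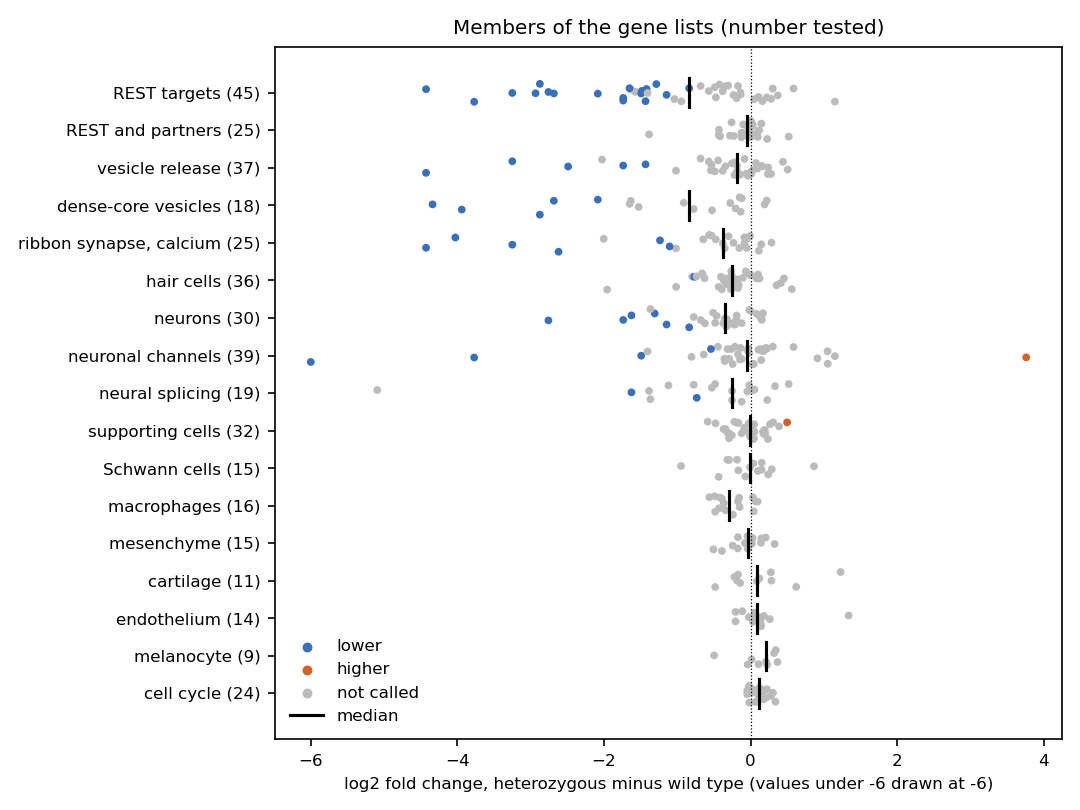
Log2 fold change (heterozygous minus wild type, solvent; horizontal axis) of each tested member of 17 gene lists, 1 point per gene, blue where called lower, orange where called higher and grey where not called, with the list's median as a black bar. The medians of REST targets and of dense-core vesicle genes lie furthest below 0 (both -0.84), and values under -6 are drawn at -6.

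Promoters were searched for the core of the RE1 element, CAGCACC and GGACAG with any 2 bases between, on both strands and with at most 1 of the 13 letters differing. The search covered the 300 bases from 250 before to 50 after the start of each gene, from RefSeq on GRCm38.p6, which matched 11853 of the genes tested. The core was found in 35 of them (0.295%), in 3 of 109 lower genes with a window (2.75%) and in 2 of 110 higher genes (1.82%). Of the 35, 20 lay below 0 with a median of -0.09, and of the 6 with no letter differing none was called by edgeR or limma voom, DESeq2 called Lhx3, and 1 had an unadjusted p under 0.05. The 6 stretches below are the 5 called genes and Lhx3, the gene with an unaltered core that had the smallest p, with the core's letters in capitals:

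Tmem179: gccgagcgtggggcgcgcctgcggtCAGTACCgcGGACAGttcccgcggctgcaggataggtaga

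Rph3a: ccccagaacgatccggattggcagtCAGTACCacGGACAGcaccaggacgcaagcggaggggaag

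Lhfpl5: cgcgtttCAGCACCgcGGCCAGcgccaga

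Umodl1: ctagcaaCAGCACAggGGACAGagggacc

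Rasgrf1: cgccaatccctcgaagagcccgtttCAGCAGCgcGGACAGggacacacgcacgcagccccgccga

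Lhx3: cctccttCAGCACCgcGGACAGcgccagc

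Positions are counted from 1 at the first base of the core with the 2-base gap included, and the core's letter is given before the promoter's. Tmem179 (chr12:112511224-112511288) and Rph3a (chr5:121009591-121009655) carried the same difference, C4T, at 96 and 84 bases before their starts, both printed on the strand opposite to the gene. Lhfpl5 (chr17:28575638-28575666, A12C, 66 bases before the start) and Rasgrf1 (chr9:89909567-89909631, C6G, 176 bases before) also had the core on the opposite strand. Umodl1 (chr17:30954620-30954648, C7A, 48 bases before the start) had it on the gene's own strand, and Lhx3 (chr2:26208269-26208297, 34 bases before) carried no difference and had it on the gene's own strand, the minus strand. Stretches of Lhfpl5, Umodl1 and Lhx3 overlap annotated exons. A match is a description of these letters and was not tested as a site. Lhx3, a transcription factor of hair cells, had 4.47, 3.52, 3.48 and 4.6 CPM in wild type and 1.33, 1.24, 2.42 and 2.94 CPM in heterozygous cultures. Its groups did not overlap, but its log2 fold change of -1.02 ± 0.31 did not pass the test (adjusted p = 0.127).

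Counts in the lists below stand against all genes tested, of which 0.823% were called lower, 1.20% higher and 52.4% lay below 0. These lists too were written with earlier results of these data known, so their counts are no independent evidence of a direction. Of 37 vesicle release genes tested, 5 fell and none rose, with a median of -0.19 and 25 below 0. By edgeR none rose here or in the lists of dense-core vesicles, ribbon synapses, hair cells, neurons and neuronal splicing below, where at most 1 member of each had an unadjusted p under 0.05 in that direction, limma voom called none and DESeq2 called only Snap23. Snap25, a SNARE protein of the plasma membrane that drives vesicle fusion, had 27.9, 19.3, 13.7 and 13 CPM in wild type and 0.909, 2.75, 2.02 and 2.05 CPM in heterozygous cultures. Wild-type library 1 was the highest, heterozygous library 1 the lowest, and the groups lay far apart (log2 fold change -3.25 ± 0.27, 9.52-fold, adjusted p = 6.68e-07). Cplx1, a complexin that binds assembled SNARE complexes, had 19.0, 10.5, 11.4 and 9.08 CPM against 0.280, 0.917, 0.606 and 0.479 CPM. No heterozygous library reached 1 CPM, and Cplx1 fell 21.5-fold (log2 fold change -4.43 ± 0.37, adjusted p = 6.16e-07).

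Syp, an abundant membrane protein of synaptic vesicles, had 5.74, 5.23, 4.99 and 4.19 CPM in wild type and 1.89, 2.16, 0.808 and 2.60 CPM in heterozygous cultures. The ranges were apart and the change was 2.70-fold (adjusted p = 0.0026). For Rab3c, a vesicle GTPase, the values were 7.14, 6.00, 5.55 and 4.83 CPM against 1.54, 1.77, 1.95 and 1.78 CPM. The heterozygous libraries agreed closely, all below the wild-type range (3.34-fold, adjusted p = 0.00382, but 0.0768 with limma voom). Rph3a, an effector of such GTPases, had 4.75, 2.42, 2.30 and 3.16 CPM against 0.0699, 0.524, 0.741 and 0.890 CPM, again apart, with heterozygous library 1 near 0 (5.62-fold, adjusted p = 0.0097). Without wild-type library 1 and heterozygous library 4 together, Rph3a missed the threshold (adjusted p = 0.0568).

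Close relatives of the lowered vesicle genes were not called by edgeR, though some were under an alternative. Cplx2, the more abundant complexin, had 282, 288, 298 and 240 CPM in wild type and 239, 240, 228 and 246 CPM in heterozygous cultures, so that its lowest wild-type library lay within the heterozygous range (log2 fold change -0.22, adjusted p = 0.179, or 0.0487 without wild-type library 4). Snap23, the SNARE relative of Snap25 found in most tissues, had a log2 fold change of 0.24 (adjusted p = 0.126, or 0.0389 by DESeq2), Stx1a, a syntaxin that pairs with SNAP25, 0.16 (adjusted p = 0.721), and Syt1, a calcium sensor of release, 0.24 (adjusted p = 0.613). Sv2a, a vesicle glycoprotein, came nearest to the threshold at -0.49 (adjusted p = 0.0686), and passed it under 4 alternatives, DESeq2 among them (adjusted p = 0.024).

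Dense-core vesicles store peptides and amines, and 5 of the 18 genes listed with them fell while none rose (median -0.84, 16 below 0). The 5 were Chga, Chgb, Scg3, Nrsn1 and Golga7b, and whether Nrsn1 and Golga7b belong to these vesicles was not tested. Chga and Chgb encode granins, acidic proteins packed into these vesicles. Chga had 16, 12.1, 12.7 and 8.73 CPM in wild type and 0.979, 2.62, 4.78 and 3.29 CPM in heterozygous cultures. The groups were apart, with heterozygous library 1 lowest (4.24-fold, adjusted p = 0.000549). Chgb had 17.1, 9.13, 8.53 and 12.2 CPM against 2.31, 1.05, 1.08 and 1.99 CPM, also apart (7.34-fold, adjusted p = 1.67e-06). Scg3, a granin that helps to sort cargo into the vesicles, had 12.3, 10.2, 8.30 and 8.39 CPM against 0.839, 1.37, 2.63 and 1.23 CPM, and no heterozygous library came near the wild-type range (6.43-fold, adjusted p = 1.91e-05).

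Nrsn1, a membrane protein of neuronal vesicles, had 8.63, 8.03, 7.52 and 6.44 CPM in wild type and 0.280, 0.131, 0.875 and 0.685 CPM in heterozygous cultures. All 4 heterozygous libraries were under 1 CPM (15.4-fold, adjusted p = 1.03e-05). Golga7b had 13.8, 11.1, 7.57 and 7.87 CPM against 0.140, 0.327, 0.269 and 1.23 CPM, with only heterozygous library 5 above 1 CPM (20.2-fold, adjusted p = 9.09e-06). Resp18, a protein of neuroendocrine granules outside the list, had 1.63, 1.05, 0.785 and 0.804 CPM in wild type and no count in any heterozygous library (83 counts against 0, adjusted p = 4.47e-05). Cadps, which primes dense-core vesicles, had a log2 fold change of -1.65 that did not pass the test (adjusted p = 0.077). Npy, a neuropeptide chosen after its values were seen, had 42.3, 23.6, 26.5 and 29.9 CPM against 7.83, 10.4, 11.4 and 19.4 CPM. Heterozygous library 5 was the nearest to the wild-type range, which it did not reach (2.49-fold, adjusted p = 0.00694, or 0.0765 without wild-type library 1 and heterozygous library 4).

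Inner hair cells release glutamate at ribbon synapses, which use otoferlin as their calcium sensor. Of 25 listed ribbon synapse and calcium genes, 6 fell and none rose (median -0.38, 22 below 0): Snap25 and Cplx1 above, and Otof, Cabp2, Pvalb and Atp2a3. Otof, which encodes otoferlin, had 79.9, 56.9, 63.3 and 68.6 CPM in wild type and 24.7, 27.6, 32.8 and 28.9 CPM in heterozygous cultures. The spread within each group was small beside the gap between them (log2 fold change -1.24 ± 0.11, 2.36-fold, adjusted p = 2.12e-06). Cabp2, a calcium-binding modulator of the hair cell calcium channel, had 3.98, 1.27, 2.86 and 3.28 CPM against 0.629, 0.524, 0.404 and 0.274 CPM. Wild-type library 2 was the lowest of its group and still above every heterozygous library (6.15-fold, adjusted p = 0.00103).

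Pvalb, a calcium buffer of inner hair cells and neurons, had 17.4, 12.5, 11.2 and 12.1 CPM in wild type and 4.82, 4.45, 8.15 and 7.33 CPM in heterozygous cultures. Its ranges were apart, with heterozygous library 4 nearest to wild type (2.15-fold, adjusted p = 0.00994). Atp2a3, which pumps calcium into the endoplasmic reticulum, had 12.7, 8.14, 7.85 and 10.3 CPM against 0.629, 0.917, 0.673 and 0.137 CPM. Every heterozygous library was under 1 CPM (log2 fold change -4.03 ± 0.29, 16.3-fold, adjusted p = 5.89e-08), the smallest adjusted p of the lowered genes. Chrna1, an acetylcholine receptor subunit chosen after its values were seen, had 30.2, 23.0, 21.9 and 23.8 CPM against 12.4, 10.6, 14.7 and 12.7 CPM, with ranges apart (log2 fold change -0.97 ± 0.18, adjusted p = 0.00471).

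**Figure D3:**
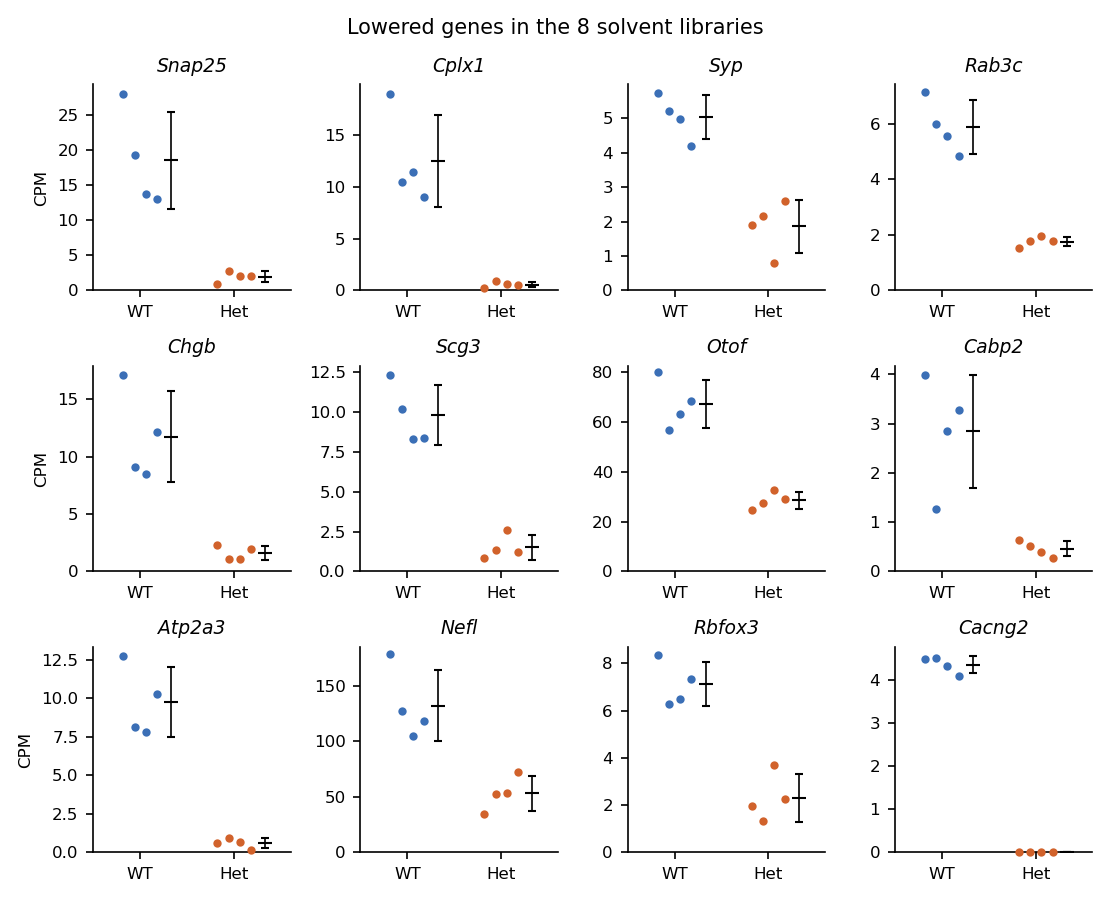
CPM in the 8 solvent libraries for 12 genes that fell, 1 panel per gene with its own axis from 0. Points are libraries 1 to 4 of wild type in blue and 1, 2, 4 and 5 of the heterozygous group in orange, and bars are the mean ± SD of 4 libraries. In each of the 12 panels all heterozygous points lie below all wild-type points, and Cacng2 is at 0 in all 4 heterozygous libraries.

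Over all genes tested 52.4% lay below 0 and 0.823% were called lower. Of 36 listed hair cell identity and bundle genes, 28 lay below 0 with a median of -0.26, and 1 was called by edgeR. That gene was Lhfpl5, a subunit of the mechanotransduction complex, with 29.9, 22.9, 20.5 and 23.5 CPM in wild type and 12.2, 9.76, 20.7 and 14.2 CPM in heterozygous cultures. Heterozygous library 4 lay within the wild-type range (1.70-fold, adjusted p = 0.0473), and the call was lost on leaving out any 1 library other than heterozygous library 4 (adjusted p up to 0.148). Pou4f3, a transcription factor that hair cells need for survival, had 39.9, 29.9, 29.7 and 33.3 CPM against 22.8, 19.0, 34.5 and 27.5 CPM. The groups overlapped through heterozygous library 4, and the log2 fold change of -0.36 did not pass the test (adjusted p = 0.384). Myo7a, a myosin of the hair bundle, had 9.63, 8.69, 13.9 and 14.2 CPM against 6.99, 6.81, 10.1 and 5.41 CPM, with heterozygous library 4 above 2 wild-type libraries (adjusted p = 0.218).

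Transcripts of other synaptic proteins of hair cells did not pass the test. Slc17a8, the vesicular glutamate transporter of inner hair cells, had a log2 fold change of -0.53 (adjusted p = 0.801), Cacna1d, their calcium channel, -0.48 (adjusted p = 0.503), and Calb2, a calcium buffer, -0.57 (adjusted p = 0.135). The summed level of the hair cell list was 839 to 968 CPM in wild type and 711 to 915 CPM in heterozygous cultures. These ranges overlap, and their part in the lower levels of Otof and Cabp2 was not tested.

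Neurofilaments, the intermediate filaments of axons, fell together with other neuronal genes. Of 30 listed spiral ganglion neuron genes, 6 fell and none rose (median -0.34, 24 below 0): Nefl, Nefm, Nefh, Ina, Tubb3 and Rbfox3. Nefl, the light neurofilament subunit, had 178, 127, 105 and 118 CPM in wild type and 34.4, 52.6, 53.9 and 72.7 CPM in heterozygous cultures. Wild-type library 1 was the highest and all heterozygous libraries lay below the wild-type range (2.48-fold, adjusted p = 0.0079). Nefh, the heavy subunit, had 10.8, 6.71, 4.21 and 7.18 CPM against 2.10, 1.57, 1.89 and 3.15 CPM, also apart (3.33-fold, adjusted p = 0.00146). Ina, an internexin that assembles with them, had 4.11, 3.08, 3.03 and 3.22 CPM against 0.210, 0.327, 0.471 and 0.959 CPM, apart (6.76-fold, adjusted p = 4.07e-05).

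The medium subunit Nefm had 181, 112, 100 and 99.3 CPM in wild type and 45.2, 55.5, 56.8 and 65.4 CPM in heterozygous cultures, again with wild-type library 1 highest and no overlap (2.21-fold, adjusted p = 0.0136). Rbfox3, the RNA-binding neuronal marker known as NeuN, had 8.36, 6.27, 6.51 and 7.36 CPM against 1.96, 1.31, 3.70 and 2.26 CPM. Its ranges were apart (3.08-fold, adjusted p = 0.00139). Tubb3, a neuronal tubulin, had 19.1, 13.5, 8.69 and 10.7 CPM against 5.80, 9.17, 5.59 and 8.56 CPM, and heterozygous library 2 lay above wild-type library 3 (1.79-fold, adjusted p = 0.0381). Calls for Nefm were lost without wild-type library 1 or heterozygous library 1 (adjusted p up to 0.0596), and for Tubb3 without wild-type library 1 or 2 or heterozygous library 1 or 4 (up to 0.137). Nefl was not called without wild-type library 1 and heterozygous library 4 together (0.0727). The summed level of the neuron list was 1582 to 1829 CPM in wild type and 1403 to 1743 CPM in heterozygous cultures, and its part in these results was not tested.

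Further lowered genes, among them genes of neurons, lay outside the marker list. Gdap1, a protein of the mitochondrial outer membrane, had 12.7, 11.2, 8.02 and 8.56 CPM in wild type and 0.559, 0.917, 1.95 and 1.85 CPM in heterozygous cultures. Its groups were apart (7.64-fold, adjusted p = 8e-06). Actl6b, a subunit of the chromatin remodelling complex of neurons, had 2.58, 2.81, 1.63 and 1.49 CPM against 0.0699, 0, 0.337 and 0 CPM. All heterozygous libraries were at or near 0 (19.6-fold, adjusted p = 0.000179). Tmem179, the membrane protein whose promoter is printed above, had 9.58, 4.73, 4.94 and 5.34 CPM against 1.12, 0.917, 2.76 and 1.23 CPM, with no overlap (4.08-fold, adjusted p = 0.000637).

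Sncb, beta-synuclein of nerve terminals, had 2.17, 1.82, 1.46 and 1.72 CPM in wild type and 0.140, 0.393, 0.269 and 0.274 CPM in heterozygous cultures, a 6.49-fold fall with ranges apart (adjusted p = 8.52e-05). Fam19a3, a small secreted protein, fell 8.58-fold, and Lhfpl4, which anchors GABA receptors, 4.03-fold. Mapk8ip2, a scaffold of kinase signalling, Rundc3a and the tubulin regulator Stmn3 fell 2.79-fold, 2.44-fold and 2.67-fold. Disp2 fell 3.14-fold (adjusted p = 0.046), and its call was lost without heterozygous library 1, 2 or 4 or wild-type library 1, 2 or 4 (adjusted p up to 0.162). Btg2, an antiproliferative gene, fell from 483, 457, 450 and 385 to 250, 256, 299 and 302 CPM, without overlap (1.6-fold, adjusted p = 6.2e-05). Cd164l2 fell 1.86-fold (adjusted p = 0.000212).

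Of 39 listed neuronal channel and receptor genes 4 fell and 1 rose, with a median of -0.05. Cacng2, known as stargazin, carries AMPA receptors to the surface, and had 4.47, 4.51, 4.32 and 4.08 CPM in wild type and no count in heterozygous libraries 1, 2, 4 or 5. All 329 of its counts lay in the wild-type group (adjusted p = 3.2e-05). Chrnb2, a subunit of neuronal acetylcholine receptors, had 2.40, 2.31, 0.785 and 0.402 CPM against 0.0699, 0.0655, 0 and 0.274 CPM, apart but with a wide spread in wild type (13.7-fold, adjusted p = 0.0117, and up to 0.142 over the alternatives). Scn3b and Scn2b, auxiliary subunits of sodium channels, fell 2.81-fold and 1.45-fold (adjusted p = 0.0291 and 0.0379).

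Neither sodium channel call held in every fit that left out 1 library, while the fold changes stayed below 0. Scn3b was not called without wild-type library 1, 2 or 4 or heterozygous library 1 or 2 (adjusted p up to 0.101), and its log2 fold change ran from -1.82 to -1.205 over all alternatives. Scn2b was not called without wild-type library 1, 2 or 4 or heterozygous library 1, 2 or 4 (up to 0.13), with -0.69 to -0.42. Leaving out heterozygous library 1 or 2 or wild-type library 1, 2 or 4 thus left 2 of the 4 lower calls in the list. The gene that rose was Grin2b, an NMDA receptor subunit, with 1.85, 2.15, 1.96 and 1.03 CPM in wild type and 17.3, 22.3, 31.1 and 24.8 CPM in heterozygous cultures. Every heterozygous library was far above the wild-type range (log2 fold change 3.76 ± 0.47, 13.6-fold, adjusted p = 0.00011). The list of REST targets, written with earlier results of these data known, left out Grin2b and held its relative Grin2a (-0.14, not called). Whether Grin2b is a REST target was not tested. Among 19 neuronal RNA-binding and splicing genes, Rbfox3 and Celf5 fell and none rose (median -0.25). Celf5 fell 1.66-fold (adjusted p = 0.0366), a call that was lost on leaving out any 1 library other than wild-type library 4 (up to 0.125).

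Lists for the other cell types of the cultures held few or no calls. In so few genes this is close to the 2.03% called over all genes. Among 32 supporting cell genes only Epyc, a matrix proteoglycan, was called, 1.41-fold higher (adjusted p = 0.0277), and not without heterozygous library 4 or 5 or wild-type library 2 or 3 (up to 0.101). By edgeR no gene was called among 15 Schwann cell, 15 mesenchyme, 11 cartilage, 14 endothelium and pericyte, 9 melanocyte and 24 cell cycle genes, and the medians of these lists lay between -0.04 and 0.21. At an unadjusted p under 0.05 there were 2 Schwann cell genes and 1 each of the mesenchyme, cartilage, endothelium and melanocyte lists, and DESeq2 called 1 cartilage gene. The summed supporting cell level was 7418 to 9279 CPM in wild type and 8635 to 10548 CPM in heterozygous cultures. Rgs5, a pericyte gene, had 153, 96.9, 132 and 140 CPM in wild type and 121, 131, 526 and 542 CPM in heterozygous cultures. Heterozygous libraries 4 and 5 were high and libraries 1 and 2 within the wild-type range (adjusted p = 0.151). Among 16 p53 response, 13 immediate early, 7 mitochondrially encoded, 4 Y-linked and 2 X inactivation genes none was called by any of the 3 tools or had an unadjusted p under 0.05. The 1 red blood cell gene tested, Alas2, had 0.0452, 0.220, 0.617 and 0.287 CPM against 1.82, 0.851, 0.673 and 1.23 CPM, without overlap (adjusted p = 0.06), and was called higher by DESeq2. The summed level of the listed red blood cell genes was 0.212 to 0.951 CPM in wild type and 1.41 to 2.92 CPM in heterozygous cultures, also without overlap (exact permutation p = 0.0286, adjusted p = 0.162), and its part in the results was not tested.

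Macrophage genes were lower in sum, while none was called by edgeR, DESeq2 or limma voom and 5 had an unadjusted p under 0.05, all of them lower. The summed level of 16 such genes was 489 to 547 CPM in wild type and 331 to 471 CPM in heterozygous cultures, with no overlap (exact permutation p = 0.0286, the smallest that 4 against 4 libraries can give, and adjusted p = 0.162). The median log2 fold change was -0.29 and 12 of 16 lay below 0. C1qa, a complement subunit made by macrophages, had 33.7, 33.8, 35.8 and 32.6 CPM against 16.8, 25.1, 31.2 and 27.7 CPM. The groups did not overlap, but heterozygous library 4 came near the wild-type range (log2 fold change -0.43, adjusted p = 0.258). Csf1r, the receptor that macrophages need for survival, had 25.3, 23.3, 25.4 and 24.7 CPM against 10, 12.9, 29.6 and 22.8 CPM, so heterozygous libraries 1 and 2 were low and library 4 was the highest of all (adjusted p = 0.688). Of 20 interferon response genes only H2-D1, a class I histocompatibility gene, was called, 1.57-fold higher (adjusted p = 0.0316), and not without heterozygous library 1 or 2 or wild-type library 1, 3 or 4 (up to 0.121). Over all genes tested 1.20% were called higher.

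Few of the genes that rose were members of the lists, of which 3 of 24 held 1 called higher gene each. Tmem163, a zinc transporter of vesicles, had 0.452, 0.550, 0.841 and 0.919 CPM in wild type and 80.3, 89.5, 89.2 and 93.3 CPM in heterozygous cultures. It went from near 0 in every wild-type library to a narrow range in every heterozygous one (log2 fold change 7.0 ± 0.19, 128-fold, adjusted p = 1.27e-14). Mal2, a membrane trafficking protein of epithelia, had 22.9, 40.7, 40.3 and 35.7 CPM against 584, 322, 563 and 520 CPM. Heterozygous library 2 was the lowest of its group and still far above wild type (14.3-fold, adjusted p = 1.03e-08).

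Fam219b had 92.9, 82.7, 87.8 and 88.4 CPM in wild type and 581, 639, 550 and 475 CPM in heterozygous cultures, well apart (6.38-fold, adjusted p = 1.24e-10). Hipk1, a nuclear kinase, had 27.3, 26.5, 34.4 and 30.1 CPM against 214, 141, 196 and 152 CPM, also well apart (5.94-fold, adjusted p = 2.16e-10). Zfp868, a zinc finger gene, had 27.1, 21.3, 20.4 and 23.7 CPM against 239, 108, 144 and 174 CPM. Heterozygous library 1 was the highest and library 2 the lowest of its group, and all 4 lay above wild type (7.17-fold, adjusted p = 0.000119). The most abundant of these genes was Ptp4a2, a phosphatase, with 1779, 1791, 1698 and 1746.5 CPM against 7286, 7089.6, 4691 and 4741 CPM. Heterozygous libraries 1 and 2 were higher than libraries 4 and 5, and all 4 lay above wild type (3.39-fold, adjusted p = 0.000793).

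Further raised genes of small adjusted p are given by their levels. Vav3, an exchange factor for small GTPases, had 18.3, 13.8, 13.6 and 17.0 CPM in wild type and 55.6, 32.0, 60.1 and 39.8 CPM in heterozygous cultures, apart (2.99-fold, adjusted p = 1.19e-05). Cxcr4, a chemokine receptor, had 8.86, 7.70, 6.90 and 8.85 CPM against 15.4, 15.8, 20.8 and 21.9 CPM, apart (2.29-fold, adjusted p = 4.18e-05). Irak4, a kinase of Toll-like receptor signalling, had 53.8, 51.3, 49.9 and 52.0 CPM against 139, 97.2, 148 and 139 CPM. Wild-type values hardly differed, and all heterozygous libraries lay above them (2.53-fold, adjusted p = 3.78e-05). Usp22, a ubiquitin protease of the SAGA coactivator complex, had 846, 809, 767 and 736 CPM against 1364, 1194, 1387 and 1506 CPM, apart (1.73-fold, adjusted p = 5.68e-05). Tsn and Ints13 rose 1.69-fold and 2.48-fold (adjusted p = 2.71e-07 and 0.00017).

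Umodl1 and Rasgrf1, the raised genes with the RE1 core named above, were chosen after their values were seen. Umodl1 had 3.75, 2.42, 3.14 and 3.22 CPM in wild type and 9.09, 10.6, 11.7 and 9.66 CPM in heterozygous cultures, apart (3.26-fold, adjusted p = 0.000207). Rasgrf1, an exchange factor for Ras and an imprinted gene, had 6.37, 5.61, 2.86 and 7.24 CPM against 12.7, 11.8, 14.1 and 7.60 CPM. Heterozygous library 5 was just above the highest wild-type library (2.09-fold, adjusted p = 0.0182), and the call was lost without heterozygous library 1 or 4 or wild-type library 2 (up to 0.0566).

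**Figure D4:**
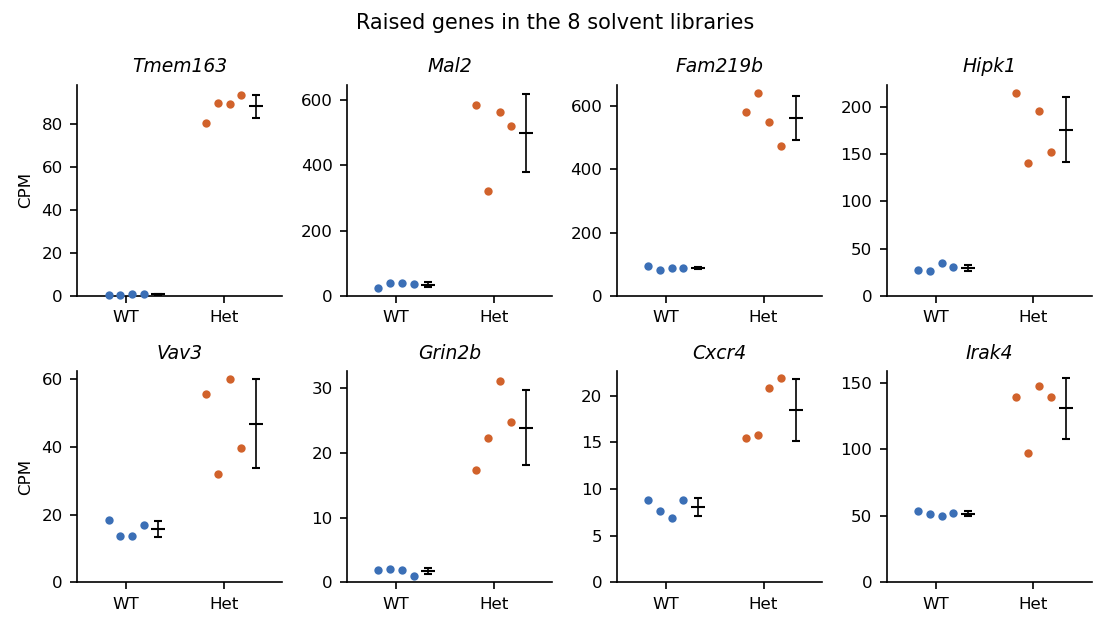
CPM in the 8 solvent libraries for 8 genes that rose, 1 panel per gene with its own axis from 0. Points are libraries 1 to 4 of wild type in blue and 1, 2, 4 and 5 of the heterozygous group in orange, and bars are the mean ± SD of 4 libraries. In all 8 panels the heterozygous points lie above the wild-type points, from near 0 for Tmem163 and from 49.9 to 53.8 CPM for Irak4.

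Processed pseudogenes, copies of transcripts inserted in the genome, made up 37 of the 206 higher calls (18.0%) and 2 of the 141 lower ones, against 662 of the genes tested (3.87%). The 37 had a median log2 fold change of 2.08, against 0.79 for the protein-coding genes that rose, and 16 of them were under 1 CPM in wild type. Reads that map to more than 1 place are set apart in the deposited counts (5.85% to 6.71% of reads in the solvent libraries). Counts of near-identical copies thus rest only on reads that differ between them, so these values are uncertain. Rps3a3, a copy of the ribosomal protein gene Rps3a1, had 1.04, 1.27, 1.18 and 1.38 CPM in wild type and 93.7, 98.2, 105 and 98.6 CPM in heterozygous cultures (81.4-fold, adjusted p = 6.43e-18). Its parent Rps3a1 had 593, 544, 499 and 493 CPM against 356, 368, 384 and 343 CPM, so that the copy was high and the parent low in every heterozygous library. Summed over Rps3a1, Rps3a2 and Rps3a3 the levels were 601, 552, 505 and 499 CPM against 465, 482, 506 and 456 CPM, which overlap. Tpm3-rs7 and Rps3a2, which have near-identical relatives too, rose 12.0-fold and 2.60-fold.

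Overlapping genes are uncertain for another reason, since the counts ignore strand. Tmem163 (chr1:127486546-127679548) and Mgat5 (chr1:127205015-127488336) overlap at their ends, and Mgat5, a glycosyltransferase, had 342, 313, 289 and 328 CPM in wild type and 189, 201, 188 and 202 CPM in heterozygous cultures. The lower level of Mgat5 was seen in all 4 heterozygous libraries (1.63-fold, adjusted p = 2.96e-05), beside the higher level of Tmem163 in the same libraries.

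Of 45 genes tested within 5 Mb of the start of Rest none was called by edgeR, DESeq2 or limma voom, which in so few genes is close to the 2.03% called over all genes, and 5 had an unadjusted p under 0.05, and their median was -0.04. The nearest called genes on chromosome 5 were Gm42486, 19.1 Mb below, and Gm5869, 9.73 Mb above. Elsewhere, 75 of the 347 called genes (21.6%) stood in 19 runs of at least 3 called genes, each within 1 Mb of the next. Genes tested also lie close together, and how many such runs as many other genes would form was not computed. The longest run, on chr3:102153583-104822779, held 8 called genes among 37 tested, 5 higher and 3 lower, with Hipk1 and Lrig2 higher and Fam19a3 and Capza1 lower. Other runs were on chr1:134075170-135434580 (5 of 28 called, with Btg2 lower and Shisa4 and Nav1 higher), chr19:46341121-47014698 (5 of 13, with Sfxn2 higher and Arl3 and Ina lower) and chr3:85869849-88576410 (6 of 54, with Rps3a1 lower and Arhgef11 higher). Of the 19 runs, 13 held called genes of both directions and 6 of 1 direction only. With spike-in scaling Lrig2, Shisa4 and Nav1 were not called (adjusted p = 0.207, 0.0805 and 0.24), and Capza1 was not called in the fit of the 8 solvent libraries alone (0.0553). By chromosome, the largest share of lower genes lay on chromosome 9, with 20 of 141 (14.2%, against 5.54% of genes tested). The largest share of higher genes lay on chromosome 3, with 21 of 206 (10.2%, against 5.43%).

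The genotypes were compared again in the 8 libraries exposed to FK228, which share no library with the solvent groups. Both comparisons came from the fit of all 16 libraries, with a shared filter and a shared estimate of each gene's spread. Calls in both are therefore not fully separate. With FK228, 1.21% of genes were called higher and 0.928% lower. Of the 206 genes that rose in solvent, 192 had a log2 fold change above 0 with FK228 (49.1% of all genes did), and 105 were called higher, which is 51.0% of the solvent calls and 50.7% of the calls with FK228. Of the 141 that fell, 131 lay below 0 (50.9% of all genes did), and 55 were called lower, 39.0% of the solvent calls and 34.6% of those with FK228. None was called in the opposite direction by edgeR, DESeq2 or limma voom, and 3 had an unadjusted p under 0.05 that way. The median of the raised genes was 1.19 in solvent and 0.87 with FK228, and that of the lowered genes -1.03 and -0.56. Since the genes were called in the solvent libraries, those medians were chosen to be far from 0 in solvent and cannot be compared as sizes.

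Genes of the ribbon synapse and calcium list were among those called in both. Otof had a log2 fold change of -1.49 with FK228 (adjusted p = 2.44e-07), Cplx1 -2.96 (adjusted p = 3.91e-05), Cabp2 -2.53 (adjusted p = 0.00558) and Pvalb -1.10 (adjusted p = 0.0118). All 6 of the listed ribbon synapse and calcium genes that fell in solvent also fell with FK228. So did 4 of 5 dense-core vesicle genes, 3 of 5 vesicle release genes, 2 of 6 neuron genes and 8 of 18 REST targets. These lists share members, and all lists together held 31 distinct genes that fell in solvent, of which 18 were REST targets. Nefl and Nefm fell in both (-1.47 and -1.20 with FK228), whereas Nefh, Ina, Rbfox3 and Tubb3 had values of -0.20, -0.67, -0.47 and -0.20 that did not pass the test. Among raised genes Tmem163 had 6.05 with FK228, Mal2 3.52, Fam219b 2.21 and Hipk1 2.61, all called, while Grin2b (1.66, adjusted p = 0.084) and Usp22 (0.22, adjusted p = 0.305) were not.

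A difference of the genotype effects between treatments was called for 4 genes (0.0234% of those tested), 3 of them among the genes lowered in solvent. Atp2a3 had 11, 14.1, 13.8 and 12.5 CPM in the wild-type FK228 libraries and 6.35, 7.38, 6.01 and 7.79 CPM in the heterozygous ones, so that its gap between genotypes was smaller there (difference of log2 fold changes 3.13 ± 0.37, adjusted p = 0.0014). Snap25 had 49.5, 40.9, 42.3 and 61.4 CPM against 21.8, 19.9, 22.9 and 23.8 CPM, still apart but by less than in solvent (2.12 ± 0.35, adjusted p = 0.0429). Sncb had 4.71, 3.63, 4.17 and 5.32 CPM against 4.23, 3.38, 3.51 and 6.14 CPM, where the genotypes overlapped (2.65 ± 0.41, adjusted p = 0.0244). Cplx2 went the other way, with 95.2, 95.0, 86.3 and 102 CPM against 45.2, 50.2, 45.6 and 45.6 CPM. That gap was wider than in solvent, where its log2 fold change of -0.22 was not called (difference -0.80 ± 0.10, adjusted p = 0.00328). Snap25 was not called without wild-type solvent library 1 or 2 or heterozygous solvent library 1, 4 or 5 (adjusted p up to 0.0831), nor Sncb without wild-type solvent library 1 or heterozygous solvent library 1, 4 or 5 (up to 0.0756).

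**Figure D5:**
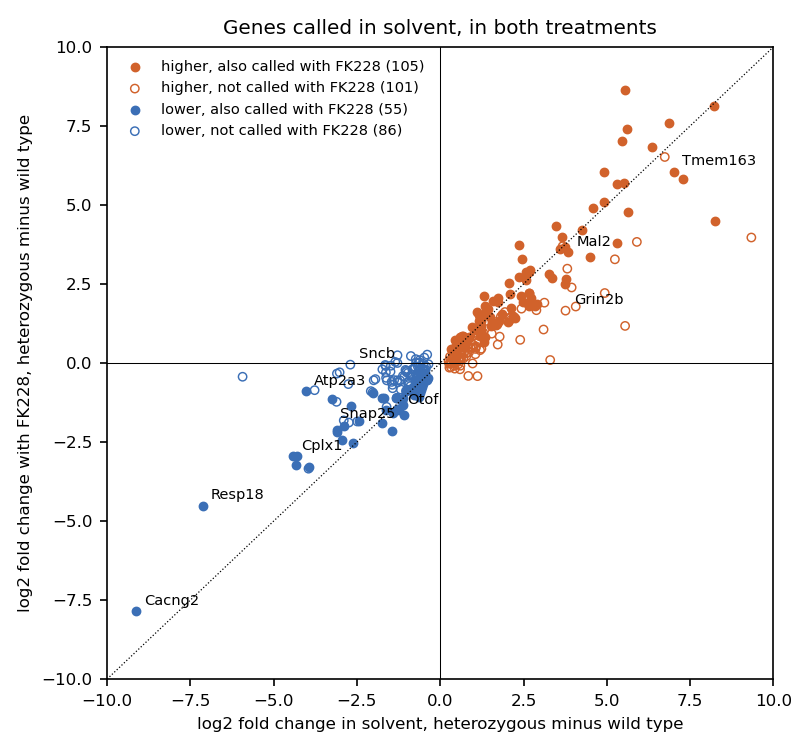
Log2 fold change between genotypes (heterozygous minus wild type) in the solvent libraries (horizontal axis) and in the FK228 libraries (vertical axis) for the 347 genes called in solvent, orange for higher and blue for lower, filled where also called with FK228 (105 higher and 55 lower). The dotted line marks equal values, and Atp2a3, Snap25 and Sncb lie above it, nearer to 0 with FK228 than in solvent.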

How the data were processed

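Polyadenylated RNA of 16 pools was sequenced in paired ends after oligo dT priming and tagmentation, per the labels' protocols. The authors deposited unstranded read counts per gene, for which the submitters' processing notes name STAR 2.5.2a and GRCm38.p4, and a table of normalized signal values that the authors made, for which the notes name DESeq2. The counts were used as deposited. ERCC, transgene and synthetic spike-in rows and reads outside genes (10.4% to 19.7% of reads in the solvent libraries) stayed out of library sizes and tests. Multiplying the deposited signal by 1 factor per library gave whole reads for 100% of values to within 0.01 reads, and the same 206 and 141 calls, so it served as an alternative input.

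The filterByExpr rule (about 10 counts in enough libraries and 15 in all) kept 17125 genes. A quasi-likelihood model in edgeR 4.0.16 (R 4.3.3) with 4 group means and TMM factors was fitted to all 16 libraries, with Benjamini-Hochberg adjustment over every gene tested, and an adjusted p under 0.05 was a call. Pools of a group differed by more than counting noise (chi-square per degree of freedom 6.57 to 29.1 between pairs), so no library repeated another. The test was first tested on simulated counts with known changes. Members and the 24 gene lists (464 symbols, 462 matched), written from general knowledge, were chosen with earlier results of these data known. Genes named were taken from Rest, called list members, the 20 higher and 20 lower genes of smallest adjusted p without overlap, called genes in runs or with the promoter core, and for lists without calls the 2 members of smallest p. Genes named beyond that rule were chosen after their values were seen, as were uncalled relatives and markers. Gene names came from the authors' table, positions from GENCODE M21 and promoters from RefSeq on GRCm38.p6.

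Alternatives were DESeq2 1.42.0, limma 3.58.1 voom, RLE factors, spike-in scaling, other filters, only the 8 solvent libraries, a replicate block, covariates, leaving out mitochondrial genes and leaving out each library in turn. Recovered reads, and leaving out wild-type library 1 and heterozygous library 4, were added after the data were seen.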

Additional observations from a re-analysis of the deposited data

Results flagged for a closer look

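Of 192 groups of 4 libraries of named genes in solvent, 4 held a library far from the other 3 by Dixon's test, where chance gives about 1 in 20. Tmem179 had 9.58 CPM in wild-type library 1 against 4.73 to 5.34 CPM in the other wild-type libraries, and Nefm had 181 CPM there against 99.3 to 112 CPM. C1qb, a macrophage complement gene, had 74.6 CPM in wild-type library 1 against 65.8 to 66.7 CPM, and Lrig2 had 73.0 CPM in wild-type library 2 against 79.3 to 80.3 CPM. Of its group, wild-type library 1 also had the smallest share of reads outside genes (10.8%), whose part in these values was not tested.

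The difference between genotypes itself differed between solvent and FK228 for 4 genes by the test of that difference. It was 3.13 for Atp2a3 (log2, FK228 minus solvent), 2.12 for Snap25 and 2.65 for Sncb, all nearer to 0 with FK228, and -0.80 for Cplx2, further from 0 with FK228.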

How the results depend on the processing

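Of 76 called genes named above, 51 were called under each alternative that tested them (19 to 21 of the 21) and 64 in each of the 8 fits that left out 1 library, and none changed direction. Of 20 genes named and not called that were followed over the alternatives, 9 were called under at least 1 of them (Sin3a, Sv2a, Snap23, Lhx3, Calb2, Cadps, C1qb, Rgs5 and Cplx2). The 1 value that changed direction was that of Rest, not called, which went to -0.056 with spike-in scaling. Leaving out 1 library gave 132 to 185 genes higher, 92 to 142 genes lower, 14 to 20 REST targets lower, 80 to 109 genes higher in both treatments, 39 to 55 genes lower in both treatments and 2 to 5 genes with a called genotype by FK228 difference. Leaving out wild-type library 1 gave 92 genes lower, and leaving out wild-type library 3 or 4 gave 132 or 133 genes higher. Over the same fits the calls in the list of neuron genes ran from 4 to 6 and in the list of neuronal channels from 2 to 5. DESeq2 gave 319 genes higher, 231 genes lower, 91 lower in both treatments and 29 differences. Limma voom gave 60 genes higher in both treatments, 12 REST targets lower and 2 differences, and the table without a filter gave 10 differences. The 8 solvent libraries alone gave 82 genes lower. With the share of reads outside genes as a covariate there were 237 genes lower, 102 lower in both treatments and 8 differences. Spike-in scaling gave 104 genes higher, 61 higher in both treatments, 187 lower in both treatments and 4069 differences. Without wild-type library 1 and heterozygous library 4 there were 2 differences. The cause of these shifts was not tested.

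The replicate numbers did not pair the samples (correlations of same-numbered libraries -0.231, 0.169 and -0.015). The replicate block gave 115 genes higher, 41 higher in both treatments, 21 lower in both treatments and 0 differences (at an adjusted p of 0.0568 for all 4 genes), and Pvalb was then not called (adjusted p = 0.0528).

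Genes with few or no counts in heterozygous cultures, such as Chrnb2 and Resp18, have fold changes limited by depth. Counts over whole genes do not tell transcripts with and without exon 4 apart, and unstranded counts do not separate overlapping genes.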
